A study of Mus musculus with 12 samples.

Results

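The genes that make, break down and anchor the action of the cyclic nucleotides cAMP and cGMP were followed in nuclear RNA from adult mouse cardiomyocytes, the contracting cells of the heart. Members are defined by their symbols, with no threshold on a measured value. They are the adenylyl cyclases (Adcy), the guanylyl cyclases (Gucy), the cyclic nucleotide phosphodiesterases (Pde), the catalytic and regulatory subunits of protein kinase A (Prka), the cGMP-dependent protein kinases (Prkg) and the numbered A-kinase anchoring proteins (Akap), with symbols ending in os left out. The rule found 66 of 46983 gene symbols. Of these members, 65 had a count in at least 1 library and 55 passed the filter on low counts, as did 17715 genes of the whole table.

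The YAP5SA mice had the genotype Yap5SA+/tg; Myh6-MCM and the control mice carried Myh6-MCM. Both groups were adult and both received tamoxifen, so the Cre recombinase and the drug are common to them. YAP5SA is the co-activator YAP with its inhibitory serines changed to alanine, and Myh6-MCM is a Cre recombinase that tamoxifen switches on, expressed in heart muscle from the Myh6 promoter. Nuclei were selected on beads through PCM1, a protein that marks cardiomyocyte nuclei, and 2 nuclear RNA-seq libraries were made per group. Whether the libraries of a group came from different animals is not stated in the labels, so each p-value reflects spread among libraries that may be technical.

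Adenylyl cyclases make cAMP when surface receptors signal through stimulatory G proteins, and guanylyl cyclases make cGMP in answer to nitric oxide or natriuretic peptides. Phosphodiesterases degrade both messengers and so set how far and how long each signal travels. In heart muscle, cAMP frees the catalytic subunits of protein kinase A, which phosphorylate calcium-handling and contractile proteins under adrenergic drive, and A-kinase anchoring proteins hold the kinase beside these substrates.

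Library totals were 15012122 and 12806949 counts in YAP5SA replicates 1 and 2 and 10927396 and 7850661 in control replicates 1 and 2. The YAP5SA libraries were close to each other (biological coefficient of variation 8.44%), and the control libraries stood further apart (34.1%). Defining cardiomyocyte markers were abundant in all 4 libraries. Their summed level was 23014 and 24477 CPM (TMM-scaled counts relative to library size) in YAP5SA nuclei and 32269 and 66369 CPM in control nuclei. Ttn alone gave 15501 and 16678 CPM of these sums in YAP5SA nuclei and 19901 and 48149 CPM in control nuclei. Of the 9 cardiomyocyte markers, 1 (Ckm) fell and the median log2 fold change was -1.10. Markers of other heart cells were also read. Macrophage markers summed to 839 and 999 CPM in YAP5SA nuclei and 492 and 307 CPM in control nuclei, and 4 of 7 rose. Endothelial markers summed to 711 and 678 CPM in YAP5SA nuclei and 1377 and 970 CPM in control nuclei, and 2 of 7 fell. Smooth muscle and pericyte markers summed to 1300 and 1456 CPM in YAP5SA nuclei and 1402 and 991 CPM in control nuclei. Of these sums, Acta2 gave 712 and 917 CPM in YAP5SA nuclei and 158 and 97.5 CPM in control nuclei. At an unadjusted p under 0.05, 4 of these 7 markers were lower and 1 higher. Fibroblast markers summed to 2875 and 3435 CPM in YAP5SA nuclei and 4259 and 3071 CPM in control nuclei, and 1 of 7 rose in each of these lists. Lymphocyte markers, with 2 of 4 tested, summed to 71.7 and 83.2 CPM in YAP5SA nuclei and 25.9 and 39.9 CPM in control nuclei. Schwann cell markers, with 3 of 4 tested, summed to 5.19 and 4.86 CPM in YAP5SA nuclei and 9.60 and 7.27 CPM in control nuclei. The part of these cell types in the results below was not tested, and fewer nuclei of a type and less RNA per nucleus cannot be told apart in bulk samples.

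Among the 55 tested members, 3 rose in YAP5SA nuclei at an adjusted p under 0.05 in the edgeR quasi-likelihood test. They were the calcium-stimulated adenylyl cyclases Adcy1 and Adcy8 and the phosphodiesterase Pde3b. None fell. The members' shares were 5.45% higher and 0% lower, and over all tested genes 553 rose (3.12%) and 177 fell (0.999%). At an unadjusted p under 0.05, 5 members (9.09%) were higher and 11 (20.0%) lower, against 12.7% and 10.9% of all tested genes. DESeq2 called 4 members higher, with Adcy7 added, and 1 lower, Pde4c, against 5.72% higher and 2.82% lower of the genes it tested. Without YAP5SA replicate 1 or 2, Adcy1 was the 1 member past the edgeR threshold. Those fits called 0.362% and 0.143% of all genes higher and 0.0266% and 0% lower. Without control replicate 1, 7 members passed as higher (12.3%) and 17 as lower (29.8%), against 18.8% and 17.4% of all genes. With control replicate 2 left out instead, 11 members passed as higher (19.6%) and 14 as lower (25.0%), against 19.7% and 18.6% of all genes. In GENCODE M21 no other gene has exons over those of Adcy1, Adcy8 or Pde3b.

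Most members had lower mean levels in YAP5SA nuclei without passing the test. The log2 fold change, YAP5SA minus control, was negative in 38 of 55 tested members (69.1%), against 54.3% of all tested genes, and its median was -0.18, against -0.06 over all tested genes. Both YAP5SA libraries lay above both control libraries for 11 members (20.0%), against 28.1% of all tested genes, and below both for 22 members (40.0%), against 28.3%. These counts leave out the 11 members under the filter. Adcy2 reached the filter level in YAP5SA libraries alone and Pde4c and Prkg2 in control libraries alone, so for these the filter itself favours a difference. Pde4c and Prkg2 are among the 11 members lower at an unadjusted p under 0.05, and this limit holds wherever they are counted below.

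**Figure D1:**
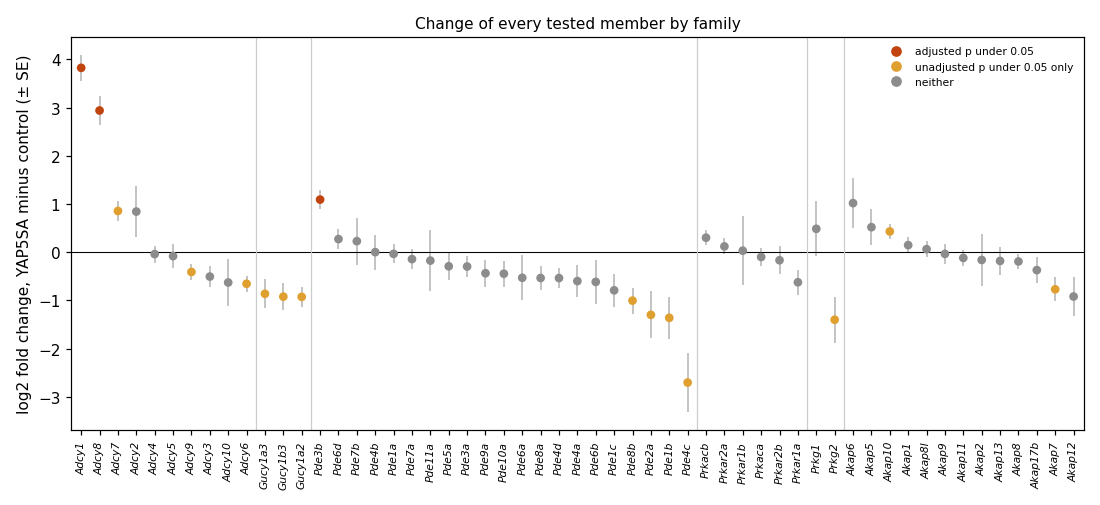
Each point is 1 of the 55 tested members, grouped by family along the horizontal axis, and the vertical axis is the edgeR log2 fold change, YAP5SA minus control, with bars of 1 SE. Adcy1, Adcy8 and Pde3b are the 3 coloured as past an adjusted p of 0.05, and 17 of 21 Pde genes lie below 0.

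Of the 3 members that rose, 2 were adenylyl cyclases. Of the 10 adenylyl cyclase genes, all tested, 2 rose (20%) and none fell by edgeR, against 3.12% and 0.999% of all tested genes. At an unadjusted p under 0.05, 3 were higher (30%) and 2 lower (20%), against 12.7% and 10.9%. DESeq2 called 3 higher and none lower, against 5.72% and 2.82% of the genes it tested. Adcy1, a calcium- and calmodulin-stimulated cyclase best known from neurons (chromosome 11, 7063489 to 7178506, plus strand, GRCm38), had 46.5 and 53.8 CPM in YAP5SA replicates 1 and 2, against 2.81 and 4.36 CPM in control replicates 1 and 2. Both YAP5SA libraries stood far above both control libraries, with raw counts of 690 and 709 in YAP5SA and 31 and 33 in control. The log2 fold change was 3.83 with an SE of 0.27 (edgeR adjusted p = 0.0112), a 14.2-fold higher level. This call held in all 10 alternative settings run, with log2 fold changes of 3.53 to 4.19 and a largest adjusted p of 0.0292.

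Adcy8, the other strongly calcium-stimulated cyclase (chromosome 15, 64697084 to 64922296, minus strand), had 17.4 CPM in each YAP5SA library, against 1.81 and 2.78 CPM in control replicates 1 and 2. The groups did not overlap, and the log2 fold change was 2.94 with an SE of 0.30 (edgeR adjusted p = 0.0244), a 7.68-fold higher level. Leaving out YAP5SA replicate 1 or 2 raised the edgeR adjusted p to 0.0718 and 0.147, while the log2 fold change was 2.95 in both of these fits. Adcy3, also of the calcium-stimulated group, did not pass the test (log2 fold change -0.51, edgeR adjusted p = 0.245). It had 8.02 and 8.66 CPM in YAP5SA and 12.0 and 11.6 CPM in control libraries. Its exons overlap those of Cenpo on the opposite strand over 1380 bases.

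The stretch of 250 bases that ends at the RefSeq start of Adcy1 is shown because Adcy1 had the largest fold change of the tested members and because Adcy8 and Pde3b had no entry in the promoter table. It is chr11:7063183-7063432 on the plus strand of GRCm38.p6, and capitals mark CG dinucleotides.
Adcy1: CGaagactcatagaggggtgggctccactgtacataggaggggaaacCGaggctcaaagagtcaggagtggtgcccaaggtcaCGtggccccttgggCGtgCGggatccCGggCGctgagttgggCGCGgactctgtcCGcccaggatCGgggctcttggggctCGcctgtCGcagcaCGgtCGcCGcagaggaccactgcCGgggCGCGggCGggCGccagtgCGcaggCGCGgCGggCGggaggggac

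The Adcy1 stretch was 71.2% G or C and held 26 CG dinucleotides, against medians of 52.4% and 6.0 over all promoters of the table. Letters of 3 motifs were searched on both strands of the 300 bases from 250 before to 50 after each start. The core GGAATG of TEAD factors, through which YAP binds DNA, was in 14.7% of all 32851 promoters and in 9 of 88 promoter windows of tested members (10.2%). The half-site TGACG of the cAMP response element was in 20.8% of all promoters and in 19 of 88 member windows (21.6%). The full element TGACGTCA, which contains the half-site, was in 1.79% of all promoters and in 2 of 88 member windows (2.27%), both of Prkar1a. The Adcy1 window held none of these letters. Windows were found for 45 of the 55 tested members.

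Adcy5 and Adcy6, the main cyclases of adult ventricular muscle, which calcium inhibits, did not pass the test in either direction. Adcy6 had 109 and 114 CPM in YAP5SA libraries, against 184 and 167 CPM in control libraries. The groups did not overlap and the log2 fold change was -0.65 with an SE of 0.16, short of the threshold (edgeR adjusted p = 0.0894). Exons of Adcy6 overlap a gene model on the opposite strand over 605 bases. Adcy5 had 64.0 and 62.3 CPM in YAP5SA libraries, inside the spread of 51.4 and 82.5 CPM in control replicates 1 and 2 (log2 fold change -0.08, edgeR adjusted p = 0.878). Its log2 fold change was -0.38 without control replicate 1, past the threshold (edgeR adjusted p = 0.0181), and 0.33 without control replicate 2 (edgeR adjusted p = 0.0559). Adcy9, a widely expressed cyclase insensitive to forskolin, had 34.2 and 30.9 CPM in YAP5SA libraries and 43.7 and 42.8 CPM in control libraries (log2 fold change -0.41, edgeR adjusted p = 0.211). Adcy2, Adcy4 and Adcy10 had log2 fold changes of 0.84, -0.04 and -0.63, and Adcy4, the highest of these per length, had 28.6 and 26.2 CPM in YAP5SA libraries and 26.5 and 29.9 CPM in control libraries.

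Adcy7, a cyclase common in blood-derived cells, had 89.1 and 109 CPM in YAP5SA libraries, against 47.3 and 62.5 CPM in control libraries. Both YAP5SA libraries were higher, and the log2 fold change was 0.86 with an SE of 0.21 (edgeR adjusted p = 0.0916). DESeq2 put Adcy7 past the threshold (adjusted p = 0.0359), within a range of 3.50e-12 to 0.753 over the 10 alternatives. All 7 macrophage markers also lay higher in both YAP5SA libraries, and the part of macrophage RNA in the Adcy7 level was not tested. Without control replicate 1 or 2, Adcy6 and Adcy9 passed as lower and Adcy7 as higher in both fits, with Adcy6 log2 fold changes of -0.58 and -0.68 and Adcy7 log2 fold changes of 0.67 and 1.11.

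**Figure D2:**
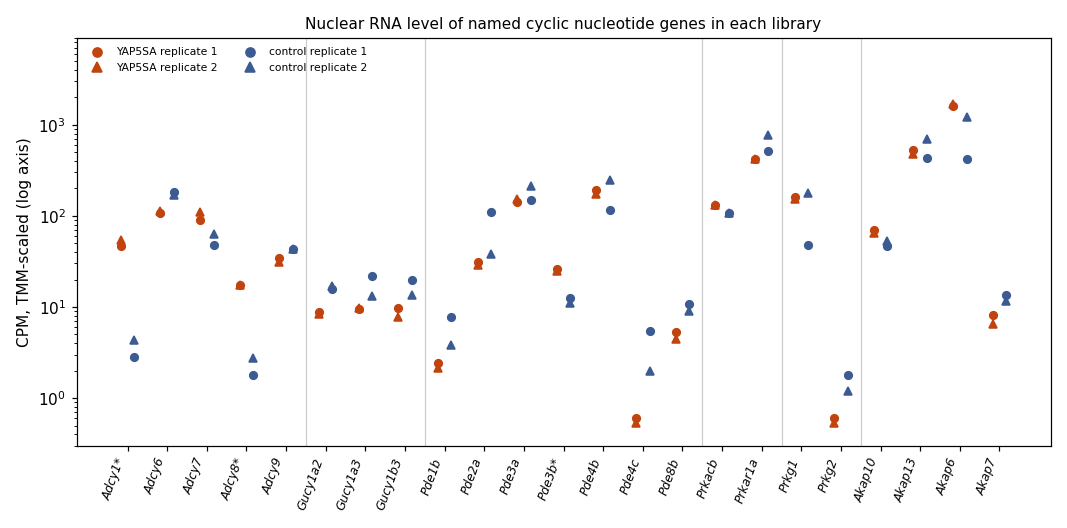
Points give the CPM of each named member in each library on a log axis, with YAP5SA libraries (orange) left of control libraries (blue), circles for replicate 1, triangles for replicate 2 and an asterisk for members past an adjusted p of 0.05. Adcy1 and Adcy8 show the widest separation between groups, and for Akap6, Prkg1, Pde2a and Pde4b the control libraries lie far apart from each other.

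Divided by the length of the merged exons, the adenylyl cyclase genes summed to a similar level in the 4 libraries but differed in composition. The summed level was 58.4 and 61.6 CPM per kb in YAP5SA libraries and 58.2 and 62.9 CPM per kb in control libraries. Adcy1 and Adcy8 together made up 10.01% and 10.4% of this sum in YAP5SA libraries, against 0.767% and 1.10% in control libraries. Adcy5 and Adcy6 together made up 42.7% and 41.4% in YAP5SA libraries, against 58.9% and 57.5% in control libraries, and Adcy7 made up 22.7% and 26.4% in YAP5SA libraries, against 12.1% and 14.8% in control libraries. In mean level per length, Adcy6 was the highest cyclase in both groups, with 16.4 CPM per kb in YAP5SA and 25.9 CPM per kb in control, and Adcy1 had 4.01 CPM per kb in YAP5SA and 0.286 CPM per kb in control. The shares are descriptions without a test, and they rest on exon length although whether intronic reads were counted is unknown.

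**Figure D3:**
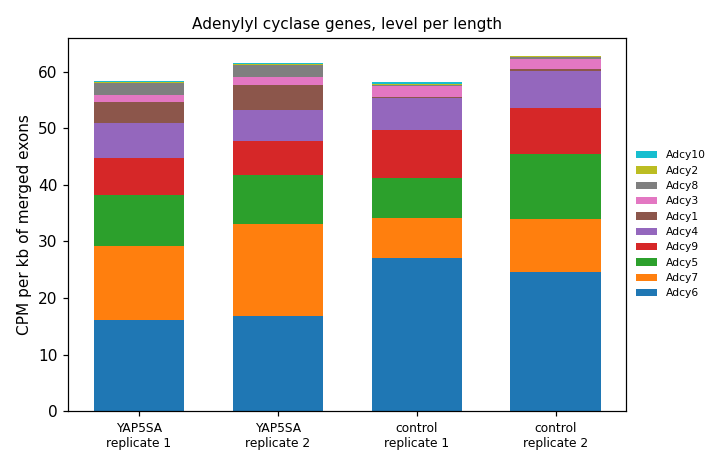
Stacked bars give the level per length (CPM per kb of merged exons) of the 10 adenylyl cyclase genes in each of the 4 libraries, YAP5SA left and control right. Bar heights are 58.4 and 61.6 in YAP5SA and 58.2 and 62.9 in control, while the share of Adcy1 and Adcy8 is 10.01% and 10.4% in YAP5SA and 0.767% and 1.10% in control.

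The guanylyl cyclases had 3 tested members of 9, all subunits of the soluble enzyme that nitric oxide activates. None passed the edgeR or the DESeq2 test. All 3 were lower at an unadjusted p under 0.05, against 10.9% of all tested genes, with a median log2 fold change of -0.92. Gucy1a2, an alpha subunit, had 8.83 and 8.43 CPM in YAP5SA libraries and 15.9 and 16.9 CPM in control libraries (log2 fold change -0.93, SE 0.21, edgeR adjusted p = 0.0725). Gucy1a3, the major alpha subunit, now named Gucy1a1, had 9.50 and 9.72 CPM in YAP5SA libraries and 21.7 and 13.1 CPM in control libraries (log2 fold change -0.86, edgeR adjusted p = 0.163). Gucy1b3, the beta subunit that binds haem, now named Gucy1b1, had 9.84 and 7.82 CPM in YAP5SA libraries and 19.9 and 13.5 CPM in control libraries (log2 fold change -0.92, edgeR adjusted p = 0.134).

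For each of these 3 subunits both YAP5SA libraries lay below both control libraries, with fold changes of close size. Without control replicate 1, Gucy1a2 and Gucy1b3 passed as lower, and without control replicate 2 all 3 did. The soluble enzyme is known from smooth muscle, pericytes and endothelium as well as from heart muscle. All 7 endothelial markers and 4 of 7 smooth muscle and pericyte markers were also lower in both YAP5SA libraries. Of the other smooth muscle and pericyte markers, Acta2 and Myh11 were higher in both YAP5SA libraries, and for Tagln the groups overlapped. The part of these cell types in the level of the subunits was not tested. The natriuretic peptide receptors Npr1 and Npr2 are also guanylyl cyclases, but their symbols fall outside the rule. Npr1 had 16.4 and 17.5 CPM in YAP5SA and 29.1 and 22.3 CPM in control libraries (log2 fold change -0.60, edgeR adjusted p = 0.167). Npr2 had 40.3 and 42.8 CPM in YAP5SA and 54.6 and 46.1 CPM in control libraries (log2 fold change -0.28, edgeR adjusted p = 0.381). The remaining Gucy genes were at or near 0. Among receptor cyclases, raw counts in YAP5SA replicates 1 and 2 and then control replicates 1 and 2 were 10, 7, 1 and 0 for Gucy2d, 0, 0, 7 and 2 for Gucy2g, 4, 2, 2 and 0 for Gucy2e, 3, 1, 6 and 0 for Gucy2c and 1, 1, 0 and 1 for Gucy2f. The beta subunit gene Gucy1b2 had 2, 0, 3 and 0 counts. A count of 0 allows up to 3 counts, or 0.202 and 0.228 CPM in YAP5SA libraries and 0.272 and 0.397 CPM in control libraries, and these limits cover counting error only.

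The Pde genes, called phosphodiesterases here by symbol alone, held 1 rise and no fall among 21 tested genes of 22. At an unadjusted p under 0.05, 1 was higher (4.76%) and 4 lower (19.0%), against 12.7% and 10.9% of all tested genes, and DESeq2 called 1 higher and 1 lower. The log2 fold change was negative in 17 of 21 (81.0%, against 54.3% of all tested genes), with a median of -0.45. Both YAP5SA libraries lay below both control libraries for 9 genes and above for 2, against 28.3% and 28.1% of all tested genes. With either control library left out, the fit rests on a lone control library. More phosphodiesterases then passed than in the main fit, as did more of all tested genes. Pde6c, a cone photoreceptor subunit, had 4, 6, 4 and 7 counts in YAP5SA replicates 1 and 2 and control replicates 1 and 2 and was not tested.

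Pde3b, a phosphodiesterase that cGMP inhibits and that acts in insulin signalling in fat and in heart (chromosome 7, 114415281 to 114539251, plus strand), had 26.0 and 24.5 CPM in YAP5SA libraries, against 12.7 and 10.97 CPM in control libraries. The groups did not overlap, and the log2 fold change was 1.09 with an SE of 0.19 (edgeR adjusted p = 0.0477), a 2.13-fold higher level. The call was near the threshold. Leaving out YAP5SA replicate 1 or 2 gave edgeR adjusted p of 0.368 and 0.465, with log2 fold changes of 1.08 and 1.16. Adipocyte markers were near 0, with summed levels of 1.15 and 1.90 CPM in YAP5SA libraries and 1.45 and 0.397 CPM in control libraries, and Adipoq had no count in either YAP5SA library. Most of the YAP5SA sum came from Lep, the 1 of 4 adipocyte markers tested, with 15 and 17 counts in YAP5SA libraries. Lep had 0 counts in both control libraries (edgeR adjusted p = 0.0551). It reached the filter level in YAP5SA libraries alone, so the filter itself favours this difference. The part of adipocyte RNA in the Pde3b level was not tested.

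Its paralog Pde3a, the main target of the heart drug milrinone, did not pass the test. Pde3a had 143 and 151 CPM in YAP5SA libraries and 149 and 213 CPM in control libraries (log2 fold change -0.30, edgeR adjusted p = 0.461), and the groups overlapped. Exons of Pde3a overlap an opposite-strand gene model over 741 bases. Per length, Pde3b made up 20.2% and 18.5% of the summed level of Pde3a and Pde3b in YAP5SA libraries, against 10.6% and 6.71% in control libraries. Without control replicate 2, the Pde3a log2 fold change was 0.019, and without control replicate 1 it was -0.52 and past the threshold (edgeR adjusted p = 0.000761).

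In the phosphodiesterase group selective for cAMP (Pde4, Pde7 and Pde8), no gene of 8 passed the edgeR test, and DESeq2 called Pde4c lower. At an unadjusted p under 0.05, 0 were higher and 2 lower (25%), against 12.7% and 10.9% of all tested genes. Pde4b, a major cAMP phosphodiesterase of the heart, had 193 and 173 CPM in YAP5SA libraries, between the 117 and 249 CPM of control replicates 1 and 2, with a log2 fold change of 0.00077 (edgeR adjusted p = 0.9995). Against control replicate 1 alone its log2 fold change was 0.68, and against control replicate 2 alone it was -0.44 (edgeR adjusted p = 0.00682), so its direction turned with the control library. Pde4c, a sparse member of the same group, had 9 and 7 counts (0.606 and 0.532 CPM) in YAP5SA libraries, against 60 and 15 counts (5.43 and 1.98 CPM) in control libraries. Both YAP5SA libraries lay below both control libraries, and the log2 fold change was -2.71 with an SE of 0.62 (edgeR adjusted p = 0.0766). Pde4c reached the filter level in control libraries alone, so the filter itself favours this difference.

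Pde8b, a high-affinity cAMP phosphodiesterase, had 5.32 and 4.48 CPM in YAP5SA libraries and 10.7 and 8.99 CPM in control libraries (log2 fold change -1.01, SE 0.27, edgeR adjusted p = 0.106). Its groups did not overlap, and it passed as lower with either control library left out. Its exons overlap those of an opposite-strand gene over 447 bases, and strand-blind counting could not separate the pair.

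Among the 3 calmodulin-dependent Pde1 genes and Pde2a, none passed the edgeR or DESeq2 test, and Pde1b and Pde2a were lower at an unadjusted p under 0.05. Pde1a had 15.4 and 17.1 CPM in YAP5SA libraries and 17.7 and 15.6 CPM in control libraries, with overlapping groups (log2 fold change -0.03, edgeR adjusted p = 0.934). Pde1b, a calmodulin-dependent enzyme, had 2.43 and 2.13 CPM in YAP5SA libraries and 7.79 and 3.83 CPM in control libraries (log2 fold change -1.36, edgeR adjusted p = 0.148). Pde2a, which cGMP activates and which links cGMP to cAMP breakdown, had 31.5 and 28.7 CPM in YAP5SA libraries and 110 and 37.7 CPM in control libraries (log2 fold change -1.30, edgeR adjusted p = 0.192). For both genes the groups did not overlap, and the higher control value came from replicate 1. The Pde2a log2 fold change was -1.83 without control replicate 2 and -0.31 without control replicate 1, and the first of these passed the threshold, as did Pde1b without control replicate 2. Control replicate 1 also had the higher endothelial marker sum, 1377 CPM against 970 CPM in replicate 2. The same held for smooth muscle and pericyte (1402 against 991 CPM), fibroblast (4259 against 3071 CPM) and macrophage markers (492 against 307 CPM). Schwann cell and adipocyte sums were also higher in replicate 1. Cardiomyocyte (32269 against 66369 CPM) and lymphocyte sums (25.9 against 39.9 CPM) were lower there. The part of these cell types was not tested. Of the exons of Pde2a, 3955 bases are shared with a same-strand gene model. The tested Pde genes not described singly had log2 fold changes from -0.79 for Pde1c to 0.27 for Pde6d.

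None of the 6 tested genes for protein kinase A subunits, of 7, passed the edgeR or DESeq2 test, and none had an unadjusted p under 0.05. Their median log2 fold change was -0.03. Prkar1a, the type I alpha regulatory subunit, had 415 and 419 CPM in YAP5SA libraries, below the 514 and 773 CPM of control libraries (log2 fold change -0.62, SE 0.26, edgeR adjusted p = 0.231). Prkacb, the catalytic beta subunit, had 133 and 131 CPM in YAP5SA libraries, above the 108 and 106 CPM of control libraries (log2 fold change 0.30, SE 0.15, edgeR adjusted p = 0.297). Per length, Prkar1a was the highest of the family in both groups, with 96.6 CPM per kb in YAP5SA and 149 CPM per kb in control, and the catalytic alpha subunit Prkaca followed with 46.3 CPM per kb in YAP5SA and 49.6 CPM per kb in control. Without control replicate 1, Prkar1a passed as lower (log2 fold change -0.88, edgeR adjusted p = 6.51e-08). Prkaca, Prkar2a, Prkar1b and Prkar2b had log2 fold changes from -0.17 to 0.12. The pseudogene Prkaca-ps1 had no count in any library.

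Of the cGMP-dependent kinases, neither passed either test. Prkg1, the form found in heart and smooth muscle, had 162 and 152 CPM in YAP5SA libraries, between the 48.5 and 176 CPM of control replicates 1 and 2 (log2 fold change 0.49, edgeR adjusted p = 0.646). Its log2 fold change was 1.73 against control replicate 1 alone (edgeR adjusted p = 1.44e-25) and -0.16 against control replicate 2 alone (edgeR adjusted p = 0.381). Prkg2, the membrane-bound form, was sparse, with 0.606 and 0.532 CPM in YAP5SA libraries and 1.81 and 1.19 CPM in control libraries (log2 fold change -1.40, edgeR adjusted p = 0.160). Its groups did not overlap, and it reached the filter level in control libraries alone, so the filter itself favours this difference.

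The A-kinase anchoring proteins had 13 tested genes of 16, with none past the threshold by edgeR or DESeq2. At an unadjusted p under 0.05, 1 was higher and 1 lower (7.69% each), against 12.7% and 10.9% of all tested genes. The median log2 fold change was -0.12. With either control library left out, more anchoring genes passed than in the main fit, as did more of all tested genes. Akap6, known as mAKAP, anchors protein kinase A at the nuclear envelope (chromosome 12, 52699383 to 53155599, plus strand). Its mean level per length was the highest of all members in YAP5SA nuclei, at 111 CPM per kb, against 54.8 CPM per kb in control nuclei. The length used is that of merged exons, 14848 of the 456217 bases of Akap6. Whether intronic reads were counted is unknown, so this rank between genes is uncertain. Akap6 had 1598 and 1697 CPM in YAP5SA libraries, above the 422 and 1205 CPM of control replicates 1 and 2. The log2 fold change was 1.02 with an SE of 0.51 (edgeR adjusted p = 0.296), and the control libraries themselves differed by -1.51 on the log2 scale, replicate 1 minus replicate 2. Against each control library alone it passed as higher, with a log2 fold change of 2.00 against replicate 1 (edgeR adjusted p = 4.99e-24) and 0.46 against replicate 2 (edgeR adjusted p = 0.0222). Per length, Akap6 made up 49.2% and 52.1% of the summed level of the family in YAP5SA libraries, against 19.3% and 39.9% in control libraries.

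Akap13, an anchor of the kinase in heart muscle, had 527 and 475 CPM in YAP5SA libraries, between the 437 and 699 CPM of control replicates 1 and 2 (log2 fold change -0.18, edgeR adjusted p = 0.743). Its log2 fold change was 0.23 without control replicate 2 and -0.47 without control replicate 1, and the second of these passed the threshold (edgeR adjusted p = 0.00607). Akap10, a dual-specificity anchor of mitochondria, had 69.5 and 64.9 CPM in YAP5SA libraries, above the 46.8 and 53.0 CPM of control libraries (log2 fold change 0.43, SE 0.17, edgeR adjusted p = 0.198). Akap7, which carries protein kinase A to the calcium channel and to phospholamban, had 8.22 and 6.53 CPM in YAP5SA libraries, below the 13.4 and 11.8 CPM of control libraries (log2 fold change -0.77, SE 0.25, edgeR adjusted p = 0.148). Akap10 passed as higher and Akap7 as lower with either control library left out. The other 9 tested anchors had log2 fold changes from -0.92 for Akap12 to 0.52 for Akap5. The 3 anchors not tested had few reads, with 10, 10, 11 and 5 counts for Akap14, 2, 0, 0 and 0 for Akap3 and 0, 0, 2 and 0 for Akap4 in YAP5SA replicates 1 and 2 and control replicates 1 and 2.

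The direction of some members depended on the control library. The median size of the log2 difference within a pair was 0.13 for the YAP5SA pair and 0.48 for the control pair over the tested members. In 9 tested members the control libraries differed by more than 1 on the log2 scale, and the YAP5SA libraries did so in 2. Control replicate 2 was higher for Prkg1, Akap2, Pde7b, Akap6 and Pde4b, with differences, replicate 1 minus replicate 2, of -1.86 to -1.09. Of the 8163 exon bases of Akap2, 6891 are shared with the same-strand gene Pakap, so the Akap2 counts may not be those of Akap2 alone. Control replicate 1 was higher for Akap12, Pde4c, Pde2a and Prkar1b, with differences of 1.28 to 2.26.

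Each control library was therefore also set alone against the 2 YAP5SA libraries, where the lone library is assumed to vary like the YAP5SA pair, whose spread was small. Both fits gave a positive log2 fold change for 12 members and a negative one for 28, and the sign differed for 15 (27.3%), against 32.4% of all genes. In both fits 13 of 55 members (23.6%) passed the threshold in the same direction, against 18.8% of all genes in both fits. The higher ones were Adcy1, Adcy7, Adcy8, Akap6, Akap10 and Pde3b, and the lower ones were Adcy6, Adcy9, Akap7, Gucy1a2, Gucy1b3, Pde4c and Pde8b. Pde4b and Akap2 passed in opposite directions. A further 9 members passed against control replicate 2 and not against control replicate 1, and 10 passed against control replicate 1 and not against control replicate 2. Over all tested genes these fits called 3496 higher and 3223 lower without control replicate 1 and 3749 higher and 3554 lower without control replicate 2.

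**Figure D4:**
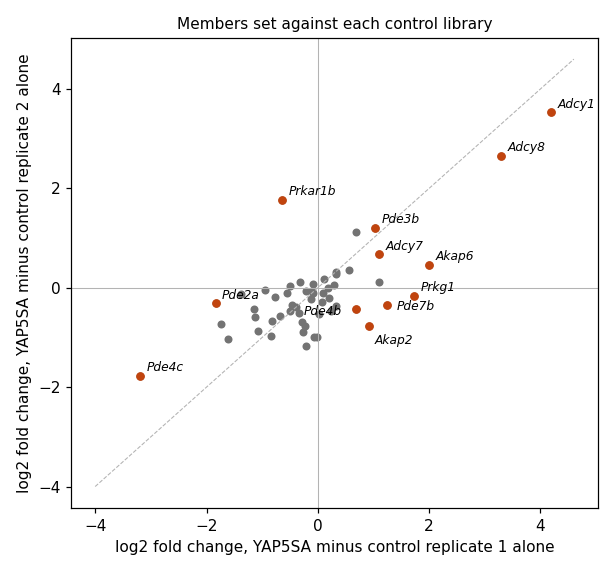
Each point is a tested member, placed by its log2 fold change of YAP5SA against control replicate 1 alone (horizontal) and against control replicate 2 alone (vertical), with equal values on the dashed line and labelled members in orange. Adcy1, Adcy8 and Pde3b lie near the line and above 0 on both axes, and 15 members, Prkg1 and Pde4b among them, change sign between the axes.

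Genes that act before and after the members were read from lists. Their counts in the main fit stand against 3.12% higher and 0.999% lower of all tested genes at an adjusted p under 0.05. At an unadjusted p under 0.05 these shares were 12.7% and 10.9%. Counts by DESeq2 stand against 5.72% higher and 2.82% lower of the genes it tested. Of 22 tested receptor, G protein and receptor-regulating genes, 1 rose and 1 fell (4.55% each), 7 were higher (31.8%) and 4 lower (18.2%) at an unadjusted p under 0.05, and the median log2 fold change was 0.40. Arrb2, which encodes a beta-arrestin that ends receptor signalling, rose to 29.3 and 36.1 CPM in YAP5SA libraries, against 12.0 and 9.91 CPM in control libraries (log2 fold change 1.57, edgeR adjusted p = 0.0321). Gnao1, an inhibitory G protein alpha subunit, fell to 11.7 and 11.4 CPM in YAP5SA libraries, against 24.8 and 23.7 CPM in control libraries (log2 fold change -1.07, edgeR adjusted p = 0.0453). Neither pair of groups overlapped. Both calls were lost without YAP5SA replicate 1 or 2, when the list had 0 higher and 0 lower.

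Of 20 tested cAMP effectors outside the member families, none passed the edgeR test, 0 were higher and 4 lower (20.0%) at an unadjusted p under 0.05, DESeq2 called 1 lower, and the median was -0.17. The 4 were the cAMP-gated exchange factors Rapgef3 and Rapgef4, the pacemaker channel Hcn2 and the transporter Abcc5, with log2 fold changes of -0.81, -1.21, -1.54 and -0.84. Of 13 cardiac substrates of protein kinase A, 1 fell (7.69%), and 4 were lower (30.8%) at an unadjusted p under 0.05, with a median of -0.46. The substrate that fell was Hspb6, a small heat shock protein, with 56.7 and 68.8 CPM in YAP5SA libraries and 128 and 136 CPM in control libraries (log2 fold change -1.07, edgeR adjusted p = 0.0426). This call was lost without YAP5SA replicate 1 or 2. The cardiomyocyte markers, with which this list shares 4 genes, had a median of -1.10, and their part in it was not tested.

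Of 12 transcription targets of cAMP signalling, 2 rose (16.7%) and none fell by edgeR, 2 were higher (16.7%) and 3 lower (25.0%) at an unadjusted p under 0.05, DESeq2 called 2 higher and 2 lower, and the median was -0.71. Fos, an immediate early transcription factor, had 139 and 126 CPM in YAP5SA libraries and 38.1 and 53.3 CPM in control libraries (log2 fold change 1.54, edgeR adjusted p = 0.0337). Dusp1, a phosphatase of MAP kinases, had 265 and 214 CPM in YAP5SA libraries and 81.3 and 86.0 CPM in control libraries (log2 fold change 1.52, edgeR adjusted p = 0.0301). Nr4a1, an orphan nuclear receptor of the same list, lay lower without passing, with 36.7 and 37.1 CPM in YAP5SA libraries and 64.0 and 81.7 CPM in control libraries (log2 fold change -0.98, edgeR adjusted p = 0.0545). Both rises were lost without YAP5SA replicate 1 or 2.

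Of 15 proteins with other names that can anchor protein kinase A, 1 rose (6.67%), none fell by edgeR, 3 were higher (20.0%) and 2 lower (13.3%) at an unadjusted p under 0.05, DESeq2 called 1 lower, and the median was 0.13. Ezr, which encodes ezrin, a linker of membrane and actin that also binds the kinase, rose to 205 and 228 CPM in YAP5SA libraries, against 41.9 and 35.6 CPM in control libraries (log2 fold change 2.48, edgeR adjusted p = 0.0129). The groups did not overlap. Without YAP5SA replicate 2, no gene of this list passed by edgeR. With either control library left out, the fit rests on a lone control library. More genes of each list then passed than in the main fit, as did more of all tested genes. Exons of Gnao1, Hspb6, Dusp1 and Ezr overlap opposite-strand genes over 284, 125, 11 and 4 bases, and Arrb2 and Hspb6 share 64 and 77 bases with same-strand gene models.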

How the data were processed

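Nuclear RNA of 2 YAP5SA and 2 control libraries was analysed from a deposited table of raw counts per gene symbol, not normalized. Per the labels' protocols, the authors depleted ribosomal RNA, made stranded libraries and mapped paired-end reads to mm10 with STAR, and DESeq2 is listed in the submitters' processing notes. For the counting step, neither program, strand setting nor annotation was found in the sources used here, so reads of 11 members cannot be told apart from those of a gene with exons on the opposite strand, 4 members share exon bases with a same-strand gene, and whether intronic reads were counted is unknown. ATAC-seq and 4C-seq samples were not analysed here.

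The members and lists were chosen with earlier results of these data known. Genes were filtered with filterByExpr (minimum count 10), scaled by TMM and tested in edgeR 4.0.16 under R 4.3.3 by its quasi-likelihood F test, two-sided, without a replicate block, with Benjamini-Hochberg adjustment over 17715 genes and a threshold of 0.05. The SE is the absolute log2 fold change over the root of F. Adjusted p-values come from this test unless DESeq2 (1.42.0, an alternative) is named. The script was tested on simulated data. Named members are those past the threshold, those with an unadjusted p under 0.05 and the 2 of highest mean CPM per family. Nr4a1, Adcy3, Adcy5, Prkaca, other members given singly beyond this rule and the genes named from lists were picked with their values in view. Coordinates, exon lengths and overlaps come from GENCODE M21, whose assembly GRCm38 is also known as mm10, and there 64 members matched by symbol and 2 by an older symbol. Promoters come from RefSeq (GRCm38.p6), with entries for 53 members. No molecular identifiers are named for the reads, so count limits cover counting error only. Depth was 7850661 to 15012122 counts. The 10 alternatives were DESeq2, size factors (RLE), library totals alone, no filter, a minimum count of 30, a replicate block and leaving out each library. The libraries of each pair differed by more than sampling noise (13.7 for the YAP5SA pair and 54.5 for the control pair in chi-square per gene), so none was merged as 1 library deposited again, and whether this spread is biological or technical cannot be told apart.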

Additional observations from a re-analysis of the deposited data

How the results depend on the processing

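The members' median log2 fold change was between -0.24 and -0.096 under the 10 alternatives. RLE size factors, library totals alone and a minimum count of 30 left the 3 member calls as they were. DESeq2 called 1069 genes higher and 527 lower, with 1 member lower (a phosphodiesterase), and without a filter edgeR called 1727 higher and 1689 lower, with 5 members higher and 9 lower. Without a filter the lower members were 3 guanylyl cyclases, 5 phosphodiesterases and 1 anchoring protein, and 1 anchoring protein was higher.

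For the lists, DESeq2 gave 1 effector lower, 3 receptor and G protein genes higher and 2 lower, 4 substrates lower, 2 transcription targets lower and 1 other anchor lower. No filter gave 4 effectors lower, 6 receptor and G protein genes higher and 2 lower, 6 substrates lower, 6 transcription targets lower, and 2 other anchors higher and 2 lower. Library totals alone gave 2 receptor and G protein genes higher.

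Replicates with the same number did not deviate together (correlation -0.092 over tested genes), so the numbers were not taken as pairs. The replicate block called 321 genes higher and 112 lower. With this replicate block, 0 phosphodiesterases were higher, 0 receptor and G protein genes lower and 0 substrates lower, and the adjusted p of Pde3b was 0.0847.

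Leaving out 1 library gave 27 to 3749 genes higher and 0 to 3554 lower, and 1 to 11 members higher and 0 to 17 lower, with the low ends without a YAP5SA library and the high ends without a control library. By family these ranges were 1 to 3 higher and 0 to 3 lower for adenylyl cyclases, 0 to 3 lower for guanylyl cyclases, 0 to 3 higher and 0 to 8 lower for phosphodiesterases, 0 to 1 in each direction for Prka and for Prkg, and 0 to 4 higher and 0 to 3 lower for anchoring proteins. By list they were 0 to 4 higher and 0 to 9 lower for effectors, 0 to 11 higher and 0 to 6 lower for receptors and G proteins, 0 to 4 higher and 0 to 10 lower for substrates, 0 to 2 higher and 0 to 5 lower for transcription targets, and 0 to 6 higher and 0 to 3 lower for other anchors.

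Log2 fold changes turned sign for some named members. Without control replicate 1 and without control replicate 2, they were -0.38 and 0.33 for Adcy5, -0.47 and 0.23 for Akap13, -0.52 and 0.019 for Pde3a, -0.44 and 0.68 for Pde4b, and -0.16 and 1.73 for Prkg1. Pde4b also had -0.065 without YAP5SA replicate 1, -0.00024 with RLE size factors and -0.033 with a minimum count of 30. The causes were not tested. With 2 libraries per group, depth and replicate number limit what can be called. Counts were under 10 in some libraries for Adcy2, Adcy10, Pde4c, Pde11a, Prkar1b, Prkg2 and all members left untested.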
